A study of Homo sapiens with 23 samples.

Results

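Sites that carried both YY1 and H3K9me3 were defined in SCi-NCCITs that had not received doxycycline. A site was a YY1 peak of replicate 1 that shared at least 1 bp with a YY1 peak of replicate 2 and with an H3K9me3 peak in both H3K9me3 libraries, and that did not overlap any of the 751 SVAs in the study's list of de-repressed SVAs. Of 56370 YY1 peaks in replicate 1, 40071 were found in replicate 2 and 40005 remained after the listed SVAs were removed. Among these, 4021 carried H3K9me3 in both libraries and are called dual sites here, 2029 carried it in 1 library, and 33955 carried it in neither and are called YY1-only sites. The dual sites were chosen by their YY1 and H3K9me3 peaks without doxycycline, so those values are given as a description, whereas the doxycycline, parental, OCT4 and RNA libraries took no part in the choice.

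The study silenced SVAs, a family of hominid retrotransposons, in NCCIT cells. NCCIT is an established human embryonal carcinoma line with pluripotent features. SCi-NCCITs are NCCITs that stably carry a dCas9-KRAB fusion on a piggyBac transposon under a doxycycline-inducible promoter, together with 2 sgRNAs. According to the paper, the sgRNAs were designed against sequence common to SVAs and the LTR5Hs family of transposable elements. They target most annotated SVAs, including ones outside the list of de-repressed SVAs. All SCi-NCCIT groups carried both constructs, and the groups differed in whether the cells received 2 µg/mL doxycycline for 72 hours. Each of those groups had 2 YY1, 2 H3K9me3 and 1 OCT4 ChIP-seq library and 3 RNA-seq libraries. A single H3K9me3 library came from parental NCCITs without the constructs. No library came from doxycycline-treated cells that lacked the constructs, so an effect of the drug and an effect of dCas9-KRAB cannot be told apart. The 11 peak lists held between 23352 and 181332 peaks. The YY1 lists held 56370 and 76098 peaks without doxycycline and 82005 and 115673 with it. RNA-seq libraries held 15305909 to 49878613 estimated counts, and the shallowest was replicate 1 without doxycycline. All 14 pluripotency markers examined were expressed, at 3.12 to 834 CPM (counts scaled to the size of each library) without doxycycline, and 6 of 12 markers of differentiated cells were too low to test, with the others between 0.245 and 18.0 CPM. With doxycycline 8 of the 14 pluripotency markers were lower and 1 of the 6 tested differentiation markers, GATA6, was higher (edgeR adjusted p below 0.05). Over all 16371 genes tested, 8.48% were lower and 8.97% higher. GATA6 was low in both groups, at a mean of 0.963 CPM without doxycycline and 2.60 CPM with it.

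YY1 is a zinc finger transcription factor that binds the core AAGATGGC and related words and is best known at active promoters, where it also takes part in contacts between promoters and enhancers. H3K9me3 is the mark of constitutive heterochromatin. In pluripotent cells it is placed on transposable elements largely by SETDB1, which KRAB zinc finger proteins bring to DNA through TRIM28, and it also covers satellite repeats and the 3′ exons of many zinc finger genes. LINE-1 retrotransposons, whose own promoter begins with a YY1 site, are among the places where YY1 and H3K9me3 can both occur.

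The sequence around the summits was compared first, since no repeat annotation was used. Within 250 bp of each YY1 summit, words of 20 bases shared by many dual sites were collected, and sites that shared at least 5 words, or the most frequent word, formed a group. The 16 groups held 67.5% of the 3912 dual sites on chromosomes 1 to 22, X and Y, against 18.8% of YY1-only sites and 14.02% of 106173 H3K9me3 peaks that carried no YY1 in either library. The groups were formed after the sequences of the dual sites were seen, so the shares are descriptions. The most frequent word of the groups that the results turn on is shown here in the 5′ to 3′ direction, read from the hg19 assembly, with the YY1 core in capitals where it is present.
group 1: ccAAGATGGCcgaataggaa
group 2: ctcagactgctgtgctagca
group 15: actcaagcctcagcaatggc
group 3: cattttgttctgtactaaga
group 5: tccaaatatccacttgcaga
group 7: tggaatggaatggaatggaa
group 6: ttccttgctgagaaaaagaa

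The word of group 1 is the start of the LINE-1 5′ region, and the words of groups 2 and 15 lie further inside the same region. Group 1 alone held 1293 dual sites, or 33.1%, against 3.73% of YY1-only sites. Groups 1, 2 and 15 together held 1781 dual sites, or 45.5%, against 5.01% of YY1-only sites. Group 3 is tied to SVAs by the listed copies, since the same words took in 69.4% of the 635 listed SVAs on the assembled chromosomes. Listed SVAs were excluded by the rule, but SVAs outside the list were not, and 208 dual sites fell into group 3. The 3′ part of an SVA derives from a HERV-K element, and SVA and LTR5Hs copies were not told apart. Groups 5, 7 and 14 hold alpha satellite and the GGAAT satellite repeat, and held 181 dual sites and 0 YY1-only sites. Group 6 held 108 dual sites and 15 YY1-only sites, and its element was not identified. Groups 4, 8, 9 and 16 were the reverse, and group 4, with an Alu word, held 2.20% of dual sites and 5.87% of YY1-only sites.

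The core AAGATGGC, searched on both strands within 250 bp of the summit, was present at 38.5% of dual sites (95% Wilson interval 37.01 to 40.06), at 21.9% of YY1-only sites (21.4 to 22.3) and at 1.96% of H3K9me3 peaks without YY1 (1.87 to 2.04). It lies inside the leading word of group 1, where 74.6% of dual sites held it. Among the 1273 dual sites in no group the share was 26.4%. The looser word AANATGGC, which contains the first, was present at 57.7% of dual sites and 43.99% of YY1-only sites. Intervals throughout cover counting error over sites only, since neighbouring sites share libraries and many share a sequence.

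The core AAGATGGC occurred in copies of group 1 with and without H3K9me3. Only copies that held it could be printed, so the lines do not compare how often it was present. The lines give hg19 stretches of 30 bases on the plus strand, with the core in capitals, for a marked and an unmarked copy among those with the highest YY1.
dual, promoter of LINC01748, chr1:61105685-61105714, plus strand: ggagaggagccAAGATGGCcgaatagcaac
YY1-only, intronic, nearest TSS ENSG00000230863, chr1:76143435-76143464, plus strand: agggaggaaccAAGATGGCcgaataggaac

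At the LINC01748 copy the YY1 peak had a fold enrichment over the background of the peak caller of 64.9 and 83.5 without doxycycline and 68.9 and 92.2 with it. Its H3K9me3 peaks were at 13.996 and 10.9 without doxycycline, 8.19 and 8.50 with it, and 4.04 in parental cells. The YY1-only copy reached 65.2 and 80.4, then 79.1 and 86.9. Both copies were printed for their high YY1 and do not stand for the group, in which YY1 was mostly far lower.

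LINE-1 copies carried less YY1 where they also carried H3K9me3. Over groups 1, 2 and 15 the median YY1 fold enrichment was 7.83 and 8.48 in the replicates without doxycycline at dual sites, and 15.6 and 16.6 at YY1-only sites. The YY1-only values had a wide middle range, with quartiles of 7.68 and 28.7 in replicate 1, against 5.41 and 12.6 at dual sites. The order was the same in the doxycycline libraries, which the rule did not use, with 11.7 and 13.0 at dual sites and 20.9 and 22.2 at YY1-only sites. These medians are over sites with a peak in the library named. Both YY1 libraries of each condition showed the difference. Over all sequences the order was the other way, with median YY1 folds of 6.29 and 7.62 at dual sites and 5.99 and 7.07 at YY1-only sites without doxycycline, and 8.85 and 10.51 against 7.77 and 9.32 with it. The H3K9me3 status that separates the sets was part of the rule, so no test of the difference was made.

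YY1 stayed on the LINE-1 sites. With doxycycline, YY1 was found in both libraries at 1761 of the 1781 dual sites of groups 1, 2 and 15, or 98.9% (98.3 to 99.3), against 93.9% of all 40005 YY1 sites. The share was 99.3% (98.8 to 99.6) at the 1700 YY1-only sites of these groups. It was found in neither doxycycline library at 0 of the 1781. Where YY1 was present in all 4 libraries, the summed fold enrichment with doxycycline was 1.40 times that without it at the median dual site of group 1 and 1.26 times at YY1-only sites of the group. Over all YY1-only sites this ratio was 1.25, so sites without H3K9me3 also lay above 1. H3K9me3 was found in both doxycycline libraries at 72.3% of the LINE-1 dual sites, against 61.2% of all 115436 H3K9me3 peaks shared by the untreated libraries, and in the parental line at 75.9%. OCT4, a pluripotency factor, had a peak at 10.6% of these dual sites and at 20.4% of the YY1-only LINE-1 sites without doxycycline, and at 2.08% and 2.18% with it. The OCT4 list itself held 50775 peaks without and 23352 with doxycycline, from 1 library each.

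Over all 4021 dual sites, YY1 was retained nearly as often as elsewhere. A YY1 peak was found at 3806 sites, or 94.7% (93.9 to 95.3), in doxycycline replicate 1 and at 3905, or 97.1% (96.6 to 97.6), in replicate 2. Both libraries had it at 3752 sites, or 93.3% (92.5 to 94.0), and neither had it at 62, or 1.54%. This was close to the background of 93.9%. With the same number of peaks taken from each YY1 library by p-value, the shares were 86.5% at dual sites and 84.7% at YY1-only sites. Without YY1 replicate 1 from untreated cells, the rule took in 7745 sites and the retained share was 63.0%, with 68.2% at YY1-only sites. Without YY1 replicate 2 from untreated cells the shares were in the other order, at 83.5% and 76.8%. H3K9me3 was found in both doxycycline libraries at 2903 dual sites, or 72.2% (70.8 to 73.6), and in neither at 7.44%. The parental line had it at 72.6% of dual sites and at 73.8% of all H3K9me3 peaks shared by the untreated libraries. The 1273 dual sites in no group kept YY1 in both libraries at 91.7% and H3K9me3 at 63.6%, and 13.2% of them were at promoters.

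The loss was concentrated in one sequence group. Of the 61 dual sites on assembled chromosomes without YY1 in either doxycycline library, 46 (75.4%) belonged to group 3, the SVA-related group, which held 5.32% of the dual sites. Within the group YY1 was found at 148 of 208 sites in doxycycline replicate 1, or 71.2% (64.7 to 76.9), and at 137 in replicate 2, or 65.9% (59.2 to 72.0). Both libraries had it at 59.1% (52.3 to 65.6) and neither at 22.1% (17.0 to 28.2). At the 3704 dual sites outside the group, both libraries had it at 95.3% (94.6 to 96.0) and neither at 0.405% (0.246 to 0.667). The low YY1 level of the group moved with this result, at median folds of 4.99 and 5.58 without doxycycline. Among sites whose replicate 1 fold lay in the group's middle range, 4.27 to 6.32, both libraries had YY1 at 58.5% of 106 group 3 sites and at 94.7% of 1290 other dual sites. With equal numbers of peaks per library the group's share was 37.3% of 166 sites, against 89.0% of 3410 dual sites outside it.

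**Figure D1:**
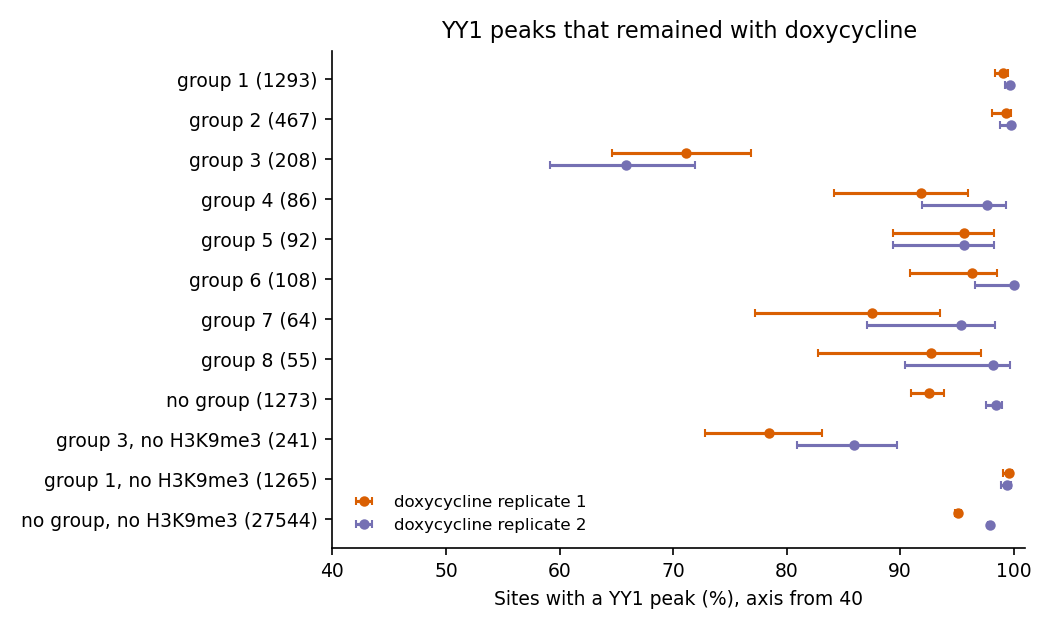
Percent of sites with a YY1 peak in each doxycycline library (points, with 95% Wilson intervals), for dual sites by sequence group and, in the last 3 lines, for YY1-only sites. The number of sites is in parentheses and the axis starts at 40. Group 3 lay at 71.2% and 65.9%, whereas groups 1 and 2 were above 99% in both libraries.

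H3K9me3 at group 3 dual sites also differed from that at most other dual sites. It was found in both doxycycline libraries at 99.0% of them (96.6 to 99.7), against 70.1% (68.6 to 71.5) of the dual sites outside the group. The background was 61.2%. The median fold in group 3 was 14.4 and 6.83 without doxycycline and 16.3 and 9.09 with it. At dual sites outside the group it was 7.30 and 6.50 without doxycycline and 6.70 and 6.16 with it. Group 3 thus had the higher H3K9me3 fold before doxycycline, mainly in replicate 1. The shares with H3K9me3 were not compared at equal folds. At sites with H3K9me3 in all 4 SCi-NCCIT libraries, the summed fold with doxycycline was 1.21 times that without it at the median site and above 1 at 74.3% of 206 sites. The same ratio was 0.873 over all dual sites and 0.824 in group 1. In the satellite groups it was 1.31 in group 7, above 1 at 93.75% of 64 sites, and 1.00 in group 5. At the 181 satellite dual sites of groups 5, 7 and 14, H3K9me3 was found in both doxycycline libraries at 100%. In parental NCCITs, which lack the constructs, 70.7% of the group 3 dual sites had an H3K9me3 peak, at a median fold of 5.74. The parental share was 78.0% among the 123 sites that kept YY1 in both doxycycline libraries and 52.2% among the 46 that kept it in neither. OCT4 peaks were present at 53 of the 208 sites (25.5%) without doxycycline and at 8 (3.85%) with it. At the dual sites outside the group the OCT4 shares were 20.6% without and 13.3% with doxycycline. The OCT4 list with doxycycline was the shorter, at 23352 peaks against 50775.

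The 241 YY1-only sites that shared the words of group 3 had no H3K9me3 peak in untreated SCi-NCCITs by definition and had one in the parental line at 0.415%. With doxycycline 71.0% (64.9 to 76.3) had H3K9me3 in both libraries, against 0.279% of the YY1-only sites outside the group. YY1 was retained in both libraries at 73.9% (68.0 to 79.0) of them, and their OCT4 share was 76.3% without and 32.4% with doxycycline. At YY1-only sites outside the group the OCT4 share also fell, from 30.9% without to 10.1% with doxycycline.

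**Figure D2:**
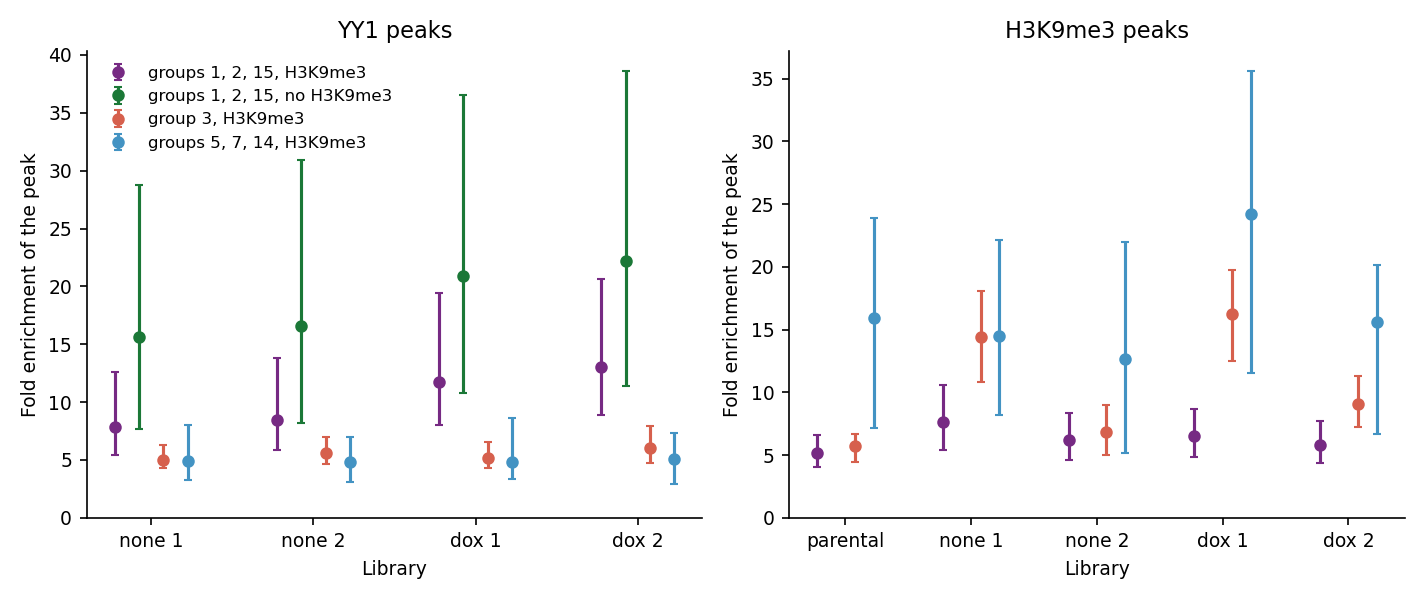
Median fold enrichment (points) with the quartiles (bars) of YY1 peaks, left, and H3K9me3 peaks, right, in each library, over sites with a peak there. LINE-1 groups 1, 2 and 15 had a median YY1 fold of 7.83 at dual sites and 15.6 at YY1-only sites in replicate 1 without doxycycline, and H3K9me3 was highest in satellite groups 5, 7 and 14.

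Most satellite dual sites had peaks of every antibody. H3K9me3 was found in both doxycycline libraries and in the parental line at all 181 dual sites of groups 5, 7 and 14. OCT4 peaks were present at 91.7% of these sites without doxycycline and 98.9% with it, although the OCT4 list with doxycycline was shorter. YY1 folds were low, with medians of 4.93 and 4.81 without and 4.81 and 5.05 with doxycycline. At 85.9% of group 5 sites every one of the 11 lists had a peak, against 9.45% of all dual sites. The dual site with the strongest H3K9me3 was in group 5. The site at chr2:92322762-92326119, in an intergenic stretch with alpha satellite words, had H3K9me3 at 93.3 and 96.5 without doxycycline, 127 and 22.1 with it and 94.0 in parental cells, beside YY1 at 67.2 and 70.3 and OCT4 at 81.3. The other 4 of the 5 strongest H3K9me3 sites were neighbours on chromosome 8, of which 3 were in group 5 and 1 in no group, with mean folds of 77.6 to 88.1. All 4 had the same replicate 1 H3K9me3 fold of 114 without doxycycline, so they are not separate measurements of H3K9me3 in that library. Peaks of all antibodies at one place were recorded here as deposited, and whether they mark binding was not tested.

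Most dual sites were far from a gene start. A summit lay within 1 kb of a transcription start site (TSS) at 261 dual sites, or 6.49% (5.77 to 7.29), and at 35.4% of YY1-only sites. Sites with H3K9me3 in 1 library were in between at 16.8%. Introns held 46.4% of the dual sites and intergenic sequence 42.8%, against 36.4% and 24.5% of YY1-only sites, and 2.71% lay on contigs without annotation. The median distance from summit to TSS was 16997.5 bp at dual sites and 3874 bp at YY1-only sites. Within 1 kb of a protein-coding TSS were 2.76% of dual and 29.9% of YY1-only sites. Chromosome X held 6.34% of dual and 3.39% of YY1-only sites, and chromosome 19 held 1.89% and 3.39%.

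The share in or at zinc finger genes was close to that of other YY1 sites, but the share at their promoters was lower. The summit lay in a gene named ZNF with a number, or within 1 kb of its TSS, at 42 dual sites, or 1.04% (0.773 to 1.41), against 1.25% of YY1-only sites. The promoters of ZNF genes held 14 dual sites, or 0.348% (0.208 to 0.584), against 0.963% (0.865 to 1.07) of YY1-only sites. YY1 was found in both doxycycline libraries at 81.0% of the 42 sites, and at 93.4% of the dual sites outside ZNF genes. This difference rests on few sites.

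The overlap at promoters was often at the edge. The YY1 summit lay inside both H3K9me3 peaks at 70.6% of dual sites and inside neither at 12.1%. Among promoter dual sites these shares were 47.9% and 36.8%, and among ZNF promoters 21.4% and 57.1%. The rule required only 1 bp, and 148 dual sites had at most 50 bp covered in the less covered library, whereas 309 sites missed the rule with H3K9me3 within 100 bp in both libraries. When the summit had to lie inside H3K9me3 in both libraries, the promoter share was 4.41%. Promoter dual sites had a median GC content of 52.5% and 18 CpGs within 250 bp of the summit, against 62.7% and 37 CpGs at YY1-only promoters. They held the core AAGATGGC at 33.0% (27.5 to 38.9), against 14.2% (13.6 to 14.8). The promoter sets were unlike in gene type. A protein-coding TSS lay within 1 kb at 111 of the 261 promoter dual sites and at 10150 of the 12011 YY1-only promoters. Promoter dual sites also include LINE-1 copies of group 1 that hold the core, such as that at LINC01748. The GC, CpG and core values therefore do not compare like promoters.

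Promoters nevertheless held most of the strongest YY1. Of the 10 dual sites with the largest YY1 fold, 8 were at promoters, 4 of these at ZNF genes, and 2 were intergenic copies of group 1. The promoters included those of ZNF649, ZNF615, ZNF350 and ZNF606, of RPA2, a subunit of the replication protein A complex, of POLR2M, and of KDM3A, an H3K9 demethylase. In 8 of the 10 the YY1 summit lay outside both H3K9me3 peaks. All 10 kept YY1 in both doxycycline libraries, and 4 had H3K9me3 in the parental line. Stretches of 30 bases of hg19 around the core at promoters show the same word with other flanks than in LINE-1.
ZNF649, chr19:52408341-52408370, minus strand: gcagatctaccAAGATGGCcgcgcccagag
ZNF615, chr19:52511483-52511512, plus strand: tgcgcagatgcAAGATGGCcgcgccctcgt
RPA2, chr1:28241211-28241240, minus strand: tgcccttcgtaAAGATGGCcgcggaggctt
ATF7IP, chr12:14538192-14538221, minus strand: aaagtgtaattAAGATGGCtgcaatgtgca

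ZNF649 had YY1 at 151 and 148 without doxycycline and 134 and 131 with it, and H3K9me3 at 13.7 and 10.9, then 9.70 and 12.0, and 5.14 in parental cells. ZNF615 had YY1 at 159 and 134, then 136 and 125, with H3K9me3 at 4.14 and 3.73 and none in the first doxycycline library or the parental line.

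Genes of the silencing machinery were examined as a list, together with imprinted and germline genes. A dual site lay within 1 kb of a TSS of 3 of 23 genes of KRAB-linked silencing, 1 of 54 imprinted genes and 1 of 47 germline genes, and of 13 of 476 genes named ZNF with a number and no letter after it, against 116 of 20149 protein-coding genes, or 0.576%. The silencing genes were ATF7IP, whose product is a partner of SETDB1, and TASOR and PPHLN1, which encode subunits of the HUSH complex. ATF7IP had YY1 at 62.8 and 81.5, then 58.3 and 80.7, and TASOR at 63.1 and 60.1, then 75.1 and 81.2. H3K9me3 at ATF7IP was 3.28 and 5.98, then none and 5.81, with 4.58 in parental cells. At TASOR it was 10.9 and 6.37, then 6.74 and 7.43, with 5.14 in parental cells, and the YY1 summit lay outside both untreated H3K9me3 peaks. At PPHLN1 the site belonged to group 3. Its YY1 was 5.17 and 14.03, then 6.86 and 6.56, and its H3K9me3 was 4.25 and 4.201, then 18.5 and 6.86, with none in parental cells. The imprinted gene was MKRN3, with H3K9me3 at 15.8 and 10.9, then 13.3 and 7.92, and 9.25 in parental cells. The germline gene was DAZL, with H3K9me3 at 7.63 and 6.37, then 6.74 and 3.52, and none in parental cells.

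RNA of the genes beside dual sites was compared between 3 libraries with and 3 without doxycycline. A dual site lay within 1 kb of a TSS of 290 annotated genes, of which 124 were expressed enough to be tested. With edgeR's quasi-likelihood test and Benjamini-Hochberg adjustment over all 16371 genes tested, 19 of the 124 changed, 8 higher and 11 lower. The background was 17.5% of all genes tested, 8.97% higher and 8.48% lower, and the 19 genes are 15.3% of those beside a dual site. The median log2 fold change was -0.07 for the 124 genes and -0.0025 over all genes. The count of 19 was 9 without untreated replicate 2, 12 without untreated replicate 3, 10 without doxycycline replicate 1 and 8 without doxycycline replicate 2. Nothing in the labels says that the RNA libraries came from separate cultures, so the p-values measure the spread between these libraries.

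Genes that rose included a ubiquitin-conjugating enzyme and genes of respiration. UBE2S, a ubiquitin-conjugating enzyme of the anaphase-promoting complex, was at 333, 259 and 318 CPM, then 449, 378 and 398, with a log2 fold change of 0.43 ± 0.10 (edgeR adjusted p = 0.018). Rises were also found in CMC1, COX8A and COA3, of which COX8A is a subunit of cytochrome c oxidase and CMC1 and COA3 help to assemble it, and in CHN1, a Rac GTPase-activating protein. Their log2 fold changes were 0.40, 0.35, 0.31 and 0.32 in that order. None of these 5 genes had H3K9me3 in parental cells, and YY1 was present in both doxycycline libraries at each. Among all promoter dual sites these shares were 51.7% with parental H3K9me3 and 94.6% with YY1. At none of the 5 was H3K9me3 found in the first doxycycline library, and at COA3 it was found in neither. Among the 261 promoter dual sites, 181 had H3K9me3 in the first doxycycline library and 62.1% had it in both. Whether H3K9me3 at these genes bears on their RNA was not tested.

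ZNF75D fell the most. Its RNA was 22.9, 23.7 and 20.6 CPM without doxycycline and 9.69, 10.7 and 10.5 with it, a log2 fold change of -1.12 ± 0.08 (edgeR adjusted p = 3.7e-05). The dual site at its TSS had YY1 at 6.84 and 6.52, then 10.4 and 4.42, and H3K9me3 at 11.2 and 5.96, then 9.21 in the first doxycycline library and none in the second. CHRNB4, a nicotinic receptor subunit with a LINE-1 copy of group 1 at its TSS, was at 3.34, 2.49 and 2.88 CPM, then 1.38, 1.42 and 1.66, with a log2 fold change of -0.95 ± 0.17 (edgeR adjusted p = 0.0055). YY1 at that copy was 25.6 and 35.4, then 30.8 and 44.4. GPR176, an orphan receptor, has a group 3 site at its TSS. Its RNA was 5.04, 4.07 and 4.65 CPM, then 2.78, 2.89 and 3.25, with a log2 fold change of -0.61 ± 0.13 (edgeR adjusted p = 0.013). YY1 at GPR176 was 12.3 and 9.95, then 6.85 and 5.71, and H3K9me3 was 22.3 and 6.83, then 26.01 and 9.09, with 8.08 in parental cells. Falls were also found in ENSG00000250669 at -0.75, ZNF239 at -0.47 and ZNF649 at -0.37 on the log2 scale, and the remaining genes called lower were between -0.37 and -0.18. Leaving out 1 library ended the call for ENSG00000250669, GPR176, ZNF649, UBE2S or COA3, depending on the library, with adjusted p of at most 0.14.

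All 15 ZNF genes with a dual site at a TSS were tested, ZNF75A and ZNF75D included. ZNF75D, ZNF239, ZNF649 and ZNF615 fell and 0 rose, and the median log2 fold change of the 15 was -0.21. Over all genes tested, 8.48% were lower and 8.97% higher. Of the 13 ZNF genes with no letter after the number, 3 fell and 0 rose. ZNF615 was at 8.45, 9.43 and 8.83 CPM, then 6.42, 7.12 and 7.25, with a log2 fold change of -0.37 ± 0.09 (edgeR adjusted p = 0.027), and passed under 6 of 10 alternatives. For ZNF350 and ZNF606, with YY1 among the strongest, the log2 fold changes were -0.07 ± 0.14 and -0.04 ± 0.09 and did not pass the test. Of the silencing genes, the values were -0.19 ± 0.07 for ATF7IP, -0.07 ± 0.10 for TASOR and -0.12 ± 0.05 for PPHLN1, with edgeR adjusted p of 0.10, 0.63 and 0.14. DAZL was at 1.64, 1.20 and 0.79 CPM, then 0.600, 0.523 and 0.723, with a log2 fold change of -0.89 ± 0.30 (edgeR adjusted p = 0.069). MKRN3 was too low to test.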

How the data were processed

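The members and gene lists were chosen with earlier results of these data known. For ChIP-seq the authors used BWA MEM and hg19 for 100 bp paired-end reads, dropped duplicates and reads of mapping quality 10 or less, and took peaks per library at a 5% FDR. The peak caller is not given in the sources used here. Copies too alike for reads to be placed uniquely are therefore underrepresented. As deposited, every peak has a fold enrichment, which is a ratio, and p- and q-values as −log10. No read depth is given, so sampling depth behind each peak is unknown and Wilson intervals at 95% were computed over sites with statsmodels 0.14.6. When several peaks overlapped a site, the largest fold was used. Positions, GENCODE v44lift37 annotation and sequence are those of GRCh37, whose assembled chromosomes match hg19. A word belonged to a group when at least 30% of the sites with the leading word had it, and leading words with fewer than 20 sites were not followed.

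For RNA-seq the authors deposited estimated counts per transcript from kallisto. They were summed per gene, which kept 95.85% to 95.96% of the counts, and rounded. The TPM values that the authors deposited beside them were not used here. Genes were tested by the quasi-likelihood test of edgeR 4.0.16 under R 4.3.3, after TMM scaling and the filterByExpr filter, with calls at an adjusted p below 0.05, with DESeq2 1.42.0 as an alternative. On simulated counts for this comparison (16199 genes, 200 changed by 1 on the log2 scale), 90.0% of the changed genes were recovered. The library kit keeps strand, but whether the counting used it is not given in the sources used here, so overlapping genes may share reads.

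Sites named were the 10 dual sites with the largest mean YY1 fold and the 5 with the largest mean H3K9me3 fold on chromosomes 1 to 22, X and Y. Genes named were those of the imprinted, germline and silencing lists and up to 10 ZNF genes with a dual site within 1 kb of a TSS, and the 6 largest rises and falls among called genes averaging 1 CPM or more whose groups did not overlap. Stretches of sequence, and ENSG00000230863 and LINC01748 with them, were chosen after values were seen. Some items that these rules select are not reported here. A table of HiChIP contacts was not used here, since its 16 columns per sample or condition carry names that the labels do not tie to a condition.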

Additional observations from a re-analysis of the deposited data

How the results depend on the processing

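Alternatives moved 28 values by more than the spread between libraries, or by over 1.5 times for a count, and left 55 within it. The log2 fold changes of the named rises and falls kept their sign, but the order of dual and YY1-only retained shares turned with equal numbers of peaks and without YY1 replicate 2 from untreated cells (83.5% and 76.8%). The split of changed genes beside a dual site, 8 higher and 11 lower, turned to 5 and 4 without untreated RNA replicate 2, to 7 and 5 without untreated replicate 3, and to 5 and 3 without doxycycline replicate 2. With only peaks of −log10 q of at least 5, 2444 dual sites remained and YY1 was retained in both doxycycline libraries at 96.6% of them and at 97.9% of YY1-only sites. With equal numbers of peaks the shares were 86.5% and 84.7%. The share within 1 kb of a TSS was 4.41% with the summit inside H3K9me3, 4.15% with at least 50% of the YY1 peak covered, and 2.76% for protein-coding genes. With YY1 replicate 2 as the base the median YY1 fold was 7.37, against 6.29. Leaving out 1 library gave 4805 to 7745 dual sites, 5.06% to 9.87% within 1 kb of a TSS, 0.999% to 1.29% at ZNF genes, a median YY1 fold of 5.50 to 6.53, and a retained share of 63.0% to 97.1% at dual and 68.2% to 97.9% at YY1-only sites. The lowest of these retained shares came without YY1 replicate 1 from untreated cells. For RNA, leaving out 1 library gave 1396 to 3259 changed genes, against 2858, and 8 to 24 beside a dual site, against 19. With the window widened to 5 kb, 57 of 330 genes beside a dual site changed, 15 higher and 42 lower, or 17.3% against 17.5% of all genes. Requiring 1 or 10 shared words, chosen after seeing the data, left the group 3 share at 59.3% and 59.1%.

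With the replicate number as a block, 3316 genes changed, 24 of them beside a dual site. Whether the numbers pair the RNA libraries could not be decided with so few libraries per group. The correlations of same-numbered deviations were 0.11, 0.08 and 0.00, and not every library correlated best with its own number. No paired analysis was possible for peaks because those results come from no test. For the named rises and falls, each under 10 alternatives, the call was lost 16 times. The number of libraries limits all of these comparisons.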
